A study of Homo sapiens with 2 samples.

Results

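The genes described here are 10 regulators that stand directly above mTORC1, the growth kinase complex, in SK-ES-1 cells, an established Ewing sarcoma line. They were taken by gene symbol: the sestrins SESN1, SESN2 and SESN3, the stress protein gene DDIT4, the tuberous sclerosis genes TSC1 and TSC2, the RAG GTPase genes RRAGC and RRAGD, and the mTOR-bound inhibitors DEPTOR and AKT1S1. All 10 of 10 were listed, each on 1 line, among 53737 genes in all.

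mTORC1 drives protein synthesis and cell growth when it sits on the lysosome and meets active RHEB, a small GTPase. TSC1 and TSC2 form the complex that switches RHEB off, and DDIT4 activates that complex under stress. Sestrins act on the amino acid arm, where they bind GATOR2 and so lower the activity of the RAG GTPases that bring mTORC1 to the lysosome. RRAGC and RRAGD encode subunits of those RAG heterodimers, which mTORC1 needs for its activation by amino acids, so these 2 are not brakes in themselves. AKT1S1, also called PRAS40, and DEPTOR bind the complex and inhibit it.

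The series holds 2 libraries of wild-type SK-ES-1 cells, 1 of slow-cycling cells and 1 of non-slow-cycling cells, with no treatment named for either. How the slow-cycling cells were marked and collected is not given in the sources used here; the column headers call the groups LRC and non-LRC. With 1 library per group, every difference below is between these 2 libraries, without a replicate check and without a p-value. Levels are given in per-million units, that is, 2 raised to the deposited log2 value, minus 1. Whether they were divided by transcript length is not stated, so levels of different genes are not ranked against each other. The read depth was unknown. A ratio is the difference in log2(units + 1), slow-cycling minus non-slow-cycling, a scale that understates the difference of low genes. Genes with at least 1 unit in at least 1 library were retained, which left 13444, and a gene was called when it was at least 1.5-fold apart, 0.58 on the log2 scale.

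All 10 marker genes of Ewing sarcoma were above 0 in both libraries and summed to 2443 units in slow-cycling cells and 2480 units in non-slow-cycling cells. Of these sums, CCND1 alone made up 1081 units in slow-cycling cells and 1066 in non-slow-cycling cells. None of the 10 was called; NR0B1 had the lowest log2 ratio at -0.30 and LIPI the highest at 0.24. The 13 markers of other cell types summed to 206 and 192 units in the same order, of which COL1A2, a collagen gene, made up 144 units in slow-cycling cells and 139 in non-slow-cycling cells. PTPRC, PECAM1 and VWF, which define blood and endothelial cells, were listed at 0 in both. Of the 8 retained markers of other cells, 7 had a ratio above 0, beside 56.2% of all retained genes. COL1A1 and CD68 were called higher, beside 5.38% of all retained genes, CD68 no longer with the level trend removed. With at least 5 units in a library, 5 of these markers were retained and 0 were called higher. The part of such cells in the results was not tested. An exact 0 can be a failed estimate in these tables, since EIF4E, the cap-binding translation factor that all cells use, was listed at 0 in both libraries.

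DDIT4 and SESN2 were higher in the slow-cycling library, and TSC1 and TSC2 each were at nearly equal levels in both. Of the 9 retained genes of the set, 2 were called higher and 0 lower. Over all retained genes, 5.38% were called higher and 1.41% lower, and among retained genes with at least 5 units in a library, 2.29% were called higher and 0.628% lower. Of the 9, 6 had a ratio above 0 and 3 below 0, while 56.2% of all retained genes were above 0. The median log2 ratio of the 9 was 0.17, beside 0.03 over all retained genes, whose middle part between the quartiles ran from -0.10 to 0.19. At a 2-fold threshold 0 of the 9 were called in either direction, beside 1.90% of all retained genes higher and 0.431% lower. At 1.2-fold, 4 of the 9 were called higher and 0 lower, beside 17.4% and 7.59%. All 9 are protein-coding, and of retained protein-coding genes 4.08% were called higher and 0.600% lower at 1.5-fold. DEPTOR stayed under the minimum level.

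**Figure D1:**
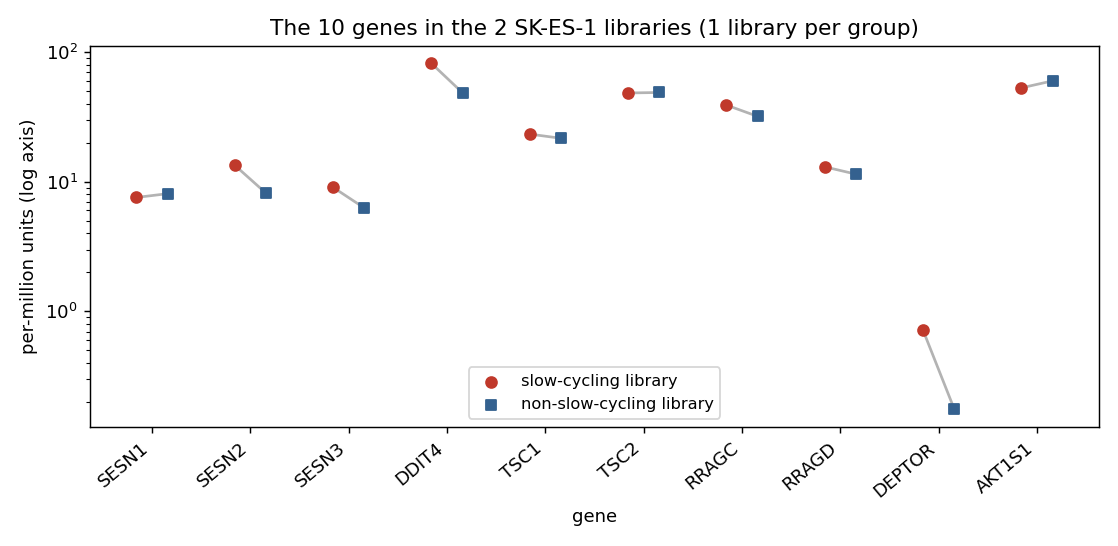
Levels of the 10 genes in per-million units on a log axis, with a circle for the slow-cycling and a square for the non-slow-cycling library (1 library each, so no error bars). DDIT4 was at 81.8 and 48.3 units and SESN2 at 13.4 and 8.14 units in slow-cycling and non-slow-cycling cells, whereas the points of TSC2 lay at nearly the same height.

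The 3 sestrins had different ratios, SESN2 the highest and SESN1 the lowest. SESN2, a sestrin induced by amino acid and endoplasmic reticulum stress through the transcription factor ATF4 and known to sense leucine, was at 13.4 units in slow-cycling cells and 8.14 units in non-slow-cycling cells. That was 1.65-fold higher in units, a log2 ratio of 0.66, and 576 of the 13444 retained genes had a higher ratio. Ratios in these libraries moved with expression level, and genes at a level like that of SESN2 had a median log2 ratio of 0.09. With that trend removed the ratio of SESN2 was 0.57, just under the threshold, so its call rests on this choice.

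SESN3, a sestrin that FOXO factors induce, was at 9.06 units in slow-cycling cells and 6.26 units in non-slow-cycling cells, a log2 ratio of 0.47. This lay at percentile 92.5 of all retained genes, below the 1.5-fold line. Genes at a level like that of SESN3 had a median log2 ratio of 0.09, and with the level trend removed SESN3 stood at 0.38. SESN1 was at 7.56 and 8.09 units in slow-cycling and non-slow-cycling cells, a log2 ratio of -0.09 at percentile 27.9. The ratios of SESN2 and SESN1 were thus 0.74 apart on the log2 scale, with SESN3 between them. SESN1 lies on chromosome 6 (108984309 to 109094846, GRCh38.p14, minus strand) and overlaps ARMC2 on the opposite strand over 68732 bases. ARMC2 was at 3.54 units in slow-cycling cells and 4.19 units in non-slow-cycling cells, and the sources do not say whether counting used strand, so reads of the 2 genes may not be separated. SESN3 (chromosome 11, 95165513 to 95232475, minus strand) overlaps an uncharacterised long non-coding gene that was listed at 0 in both libraries.

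The SESN2 gene lies on chromosome 1 (28259518 to 28282491, plus strand). The 250 bases before its annotated start are shown because it was the sestrin called higher and is a known ATF4 target (RefSeq, GRCh38.p14, chr1:28259268-28259517, plus strand). All letters are in lower case because none of 5 motifs searched on both strands was present.
SESN2: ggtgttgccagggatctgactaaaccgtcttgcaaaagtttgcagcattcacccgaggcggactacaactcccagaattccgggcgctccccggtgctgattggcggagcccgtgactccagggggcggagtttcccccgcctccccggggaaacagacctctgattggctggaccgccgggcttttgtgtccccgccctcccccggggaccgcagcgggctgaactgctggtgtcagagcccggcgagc
The motifs were TGATGNAA, the core of the ATF4 response element, ACGTG and GCGTG, the hypoxia response cores, CACGTG, the E-box, which contains ACGTG, and GTAAACA, the FOXO core. The same windows of SESN1 and SESN3 held none of the 5 either. The window had 65.6% G and C in SESN2 and 74.4% in SESN1, against 42.8% in SESN3. Sites outside these 250 bases were not searched.

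DDIT4, also known as REDD1, is induced by hypoxia, glucocorticoids and energy stress and turns mTORC1 down through TSC2. It had the highest ratio of the set. It was at 81.8 units in slow-cycling cells and 48.3 units in non-slow-cycling cells, 1.70-fold higher in units. The log2 ratio was 0.75, and 444 of the 13444 retained genes had a higher one. Genes at a like level had a median log2 ratio of -0.01, and with the level trend removed DDIT4 stood at 0.76. Its paralogue DDIT4L was listed at 0 in both libraries.

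The DDIT4 gene lies on chromosome 10 (72273924 to 72276036, plus strand). Its promoter is shown because it led the set and is a known hypoxia target (RefSeq, GRCh38.p14, chr10:72273674-72273923, plus strand); capitals mark the hypoxia response cores.
DDIT4: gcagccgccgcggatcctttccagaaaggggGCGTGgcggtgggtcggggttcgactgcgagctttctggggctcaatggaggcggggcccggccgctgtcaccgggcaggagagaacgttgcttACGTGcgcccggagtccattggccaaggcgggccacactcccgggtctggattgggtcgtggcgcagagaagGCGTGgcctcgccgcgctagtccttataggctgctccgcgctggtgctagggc
The window held ACGTG once, its first base 125 bases before the start. It held GCGTG at 219 and 53 bases before the start. Of 27305 promoter windows of the same length, 18.7% held ACGTG and 31.9% held GCGTG on either strand. Among the 10433 windows of retained genes these shares were 23.8% and 46.2%. A match describes the letters of the window and not the binding of a factor.

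**Figure D2:**
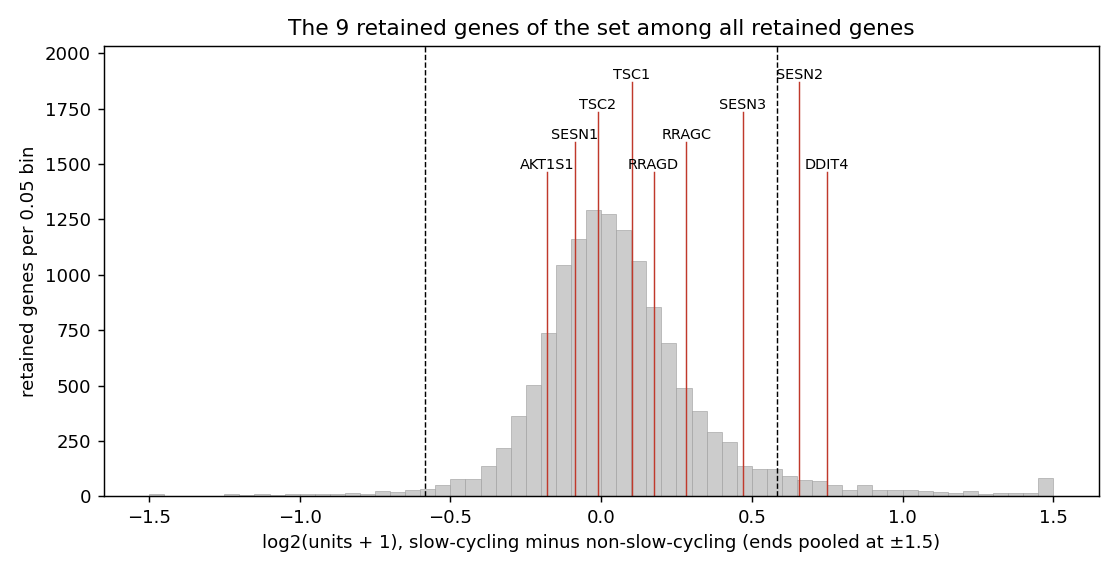
Histogram of log2 ratios, slow-cycling minus non-slow-cycling, of all 13444 retained genes in bins of 0.05, with values beyond 1.5 in either direction pooled in the end bins; red lines mark the 9 retained genes of the set and dashed lines 1.5-fold. DDIT4 and SESN2 lie to the right of the upper dashed line, SESN3 just inside it, and AKT1S1 is the farthest left at -0.18.

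The TSC genes, the point at which DDIT4 and growth factor signals meet, were close to equal in both libraries. TSC2, the GTPase-activating subunit, was at 48.3 units in slow-cycling cells and 48.7 units in non-slow-cycling cells, a log2 ratio of -0.01. TSC1, the subunit that stabilises it, was at 23.3 and 21.6 units in the same order, a log2 ratio of 0.10. TSC1 lies on chromosome 9 (132891349 to 132945378, minus strand). The TSC2 and TSC1 ratios lay at percentiles 41.6 and 62.6 of all retained genes. TBC1D7, the remaining subunit of the complex, was at 4.98 units in slow-cycling cells and 6.60 units in non-slow-cycling cells, a log2 ratio of -0.35 that did not reach 1.5-fold. TSC2 (chromosome 16, 2047985 to 2089491, plus strand) overlaps the end of PKD1 on the opposite strand by 784 bases. PKD1 was at 33.5 units in slow-cycling cells and 29.1 in non-slow-cycling cells.

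The TSC2 promoter is shown because it was the single one of the 7 matched promoters that held an ATF4 core (RefSeq, GRCh38.p14, chr16:2047735-2047984, plus strand). The capitals are an E-box, which contains ACGTG on both strands, 114 bases before the start, that runs into TGATGCAA, a match to TGATGNAA.
TSC2: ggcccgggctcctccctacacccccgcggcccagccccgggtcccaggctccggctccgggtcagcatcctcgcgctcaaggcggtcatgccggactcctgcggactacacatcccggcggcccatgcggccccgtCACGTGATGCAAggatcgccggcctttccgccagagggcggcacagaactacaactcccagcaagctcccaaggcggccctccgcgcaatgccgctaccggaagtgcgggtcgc
Of all promoter windows, 3.19% held TGATGNAA and 6.49% held CACGTG, and among those of retained genes 1.29% and 9.10% did.

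Both RAG genes were slightly higher in the slow-cycling library without reaching the threshold. RRAGC was at 39.0 units in slow-cycling cells and 31.9 units in non-slow-cycling cells, a log2 ratio of 0.28 at percentile 84.2. RRAGD, its close relative, was at 13.0 and 11.4 units in the same order, a log2 ratio of 0.17 at percentile 73.4. With the level trend removed the ratio of RRAGD was 0.10 and that of RRAGC 0.27. The RRAGD gene lies on chromosome 6 (89364616 to 89412273). The partners of RRAGC and RRAGD showed ratios in the same direction: RRAGA was at 46.4 units in slow-cycling cells and 40.7 in non-slow-cycling cells, and RRAGB at 14.6 and 11.1, with log2 ratios of 0.19 and 0.36.

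RRAGC and RRAGD are known targets of the lysosomal transcription factors TFEB and TFE3, which bind an extended E-box. The RRAGC gene lies on chromosome 1 (38838198 to 38859772, minus strand), and its promoter is shown for its E-box, in capitals, 112 bases before the start (RefSeq, GRCh38.p14, chr1:38859773-38860022, minus strand).
RRAGC: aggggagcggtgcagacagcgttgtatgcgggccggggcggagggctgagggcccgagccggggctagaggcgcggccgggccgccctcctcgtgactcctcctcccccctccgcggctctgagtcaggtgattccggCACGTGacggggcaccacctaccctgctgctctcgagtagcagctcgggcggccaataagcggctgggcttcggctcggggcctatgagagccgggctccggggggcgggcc
TFEB was at 2.24 units in slow-cycling cells and 2.89 units in non-slow-cycling cells, and TFE3 at 46.9 and 43.8. Of 14 genes in a list of these factors and their lysosomal targets, from which the RAG genes were left out, 12 were retained. None of the 12 was called in either direction. Ratios above 0 and below 0 were equally many, 6 each, and their median was -0.01. HEXA, a lysosomal hexosaminidase, was at 30.8 units in slow-cycling cells and 35.7 in non-slow-cycling cells. Of the list of GATOR2, Ragulator and folliculin genes, which pass the amino acid signal on with RAGA and RAGB, none of 16 was called and 10 had a ratio below 0. FNIP1, a folliculin partner that acts on RAGC and RAGD, had the highest ratio of that list at 0.56, with 9.45 units in slow-cycling cells and 6.07 in non-slow-cycling cells.

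Of the mTOR-bound inhibitors, AKT1S1 was slightly lower in slow-cycling cells and DEPTOR was too low to compare. AKT1S1 was at 52.8 units in slow-cycling cells and 59.9 units in non-slow-cycling cells, a log2 ratio of -0.18 at percentile 14.4. It was the lowest ratio of the set and within 1.5-fold. AKT1S1 (chromosome 19, 49869033 to 49878356) overlaps TBC1D17 by 655 bases, and TBC1D17 was at 26.6 and 26.3 units in slow-cycling and non-slow-cycling cells. DEPTOR was at 0.721 units in slow-cycling cells and 0.176 units in non-slow-cycling cells. Its gene lies on chromosome 8 (119873722 to 120050918). Both values lie under the minimum, where single values have no known error, so no ratio of DEPTOR is given.

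The kinase complex on which these genes act differed little. MTOR, the kinase, was at 51.1 units in slow-cycling cells and 53.9 in non-slow-cycling cells. RPTOR, the scaffold of mTORC1, was at 15.2 and 16.3 units, and MLST8 at 69.8 and 73.4, in the same order. RHEB, which TSC2 switches off, was at 144 and 137 units. Their log2 ratios lay between -0.10 and 0.06. Of the list of 13 genes of both mTOR complexes, RHEB and TBC1D7, only RHEBL1 was called higher, beside 5.38% of all retained genes, and none lower. RHEBL1 was at 2.99 units in slow-cycling cells and 1.41 in non-slow-cycling cells. The median log2 ratio of the list was -0.07. RHEBL1 is a relative of RHEB. With the level trend removed it was no longer called. PRR5, an mTORC2 subunit whose gene also takes part in a read-through transcript and is therefore uncertain, had the next highest ratio at 0.41.

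Of 11 genes of GATOR1, KICSTOR and the amino acid sensors, which restrain mTORC1 beside the sestrins, 10 were retained, 0 were called in either direction and the median log2 ratio was -0.04. CASTOR2, a CASTOR1 relative whose near-identical gene copies make its values uncertain, was at 12.9 units in slow-cycling cells and 8.59 in non-slow-cycling cells. KPTN of KICSTOR was at 21.7 and 28.3 units. CASTOR1 was listed at 0 in both. DEPDC5, NPRL2 and NPRL3, which form GATOR1, had log2 ratios of -0.08, 0.02 and -0.01.

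Upstream of TSC, the insulin and IGF arm had 15 of 16 genes retained, 12 with a ratio above 0 and 0 called lower, and a median log2 ratio of 0.13. Over all retained genes, 56.2% had a ratio above 0, 1.41% were called lower and the median was 0.03. IGF1R, the IGF receptor, was at 13.7 units in slow-cycling cells and 10.7 units in non-slow-cycling cells. AKT1 was at 67.4 and 76.1 units and AKT2 at 66.6 and 65.7, in the same order. The energy-sensing LKB1 and AMPK genes had 8 of 9 retained, a median of 0.07 and 1 called higher, beside 5.38% of all retained genes. PRKAG2, a regulatory subunit of AMPK, was the one called, at 6.40 units in slow-cycling cells and 3.17 in non-slow-cycling cells. STRADA, an LKB1 partner, followed with a log2 ratio of 0.20. Of 15 substrates and effectors of mTORC1, 14 were retained, 0 were called and 10 had a ratio below 0, with a median of -0.05. PDCD4, a translation repressor, had the highest ratio at 0.35 and EIF4EBP1, the translation repressor that mTORC1 phosphorylates, the lowest at -0.26. The list holds transcript levels only, and mTORC1 activity acts on the proteins.

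**Figure D3:**
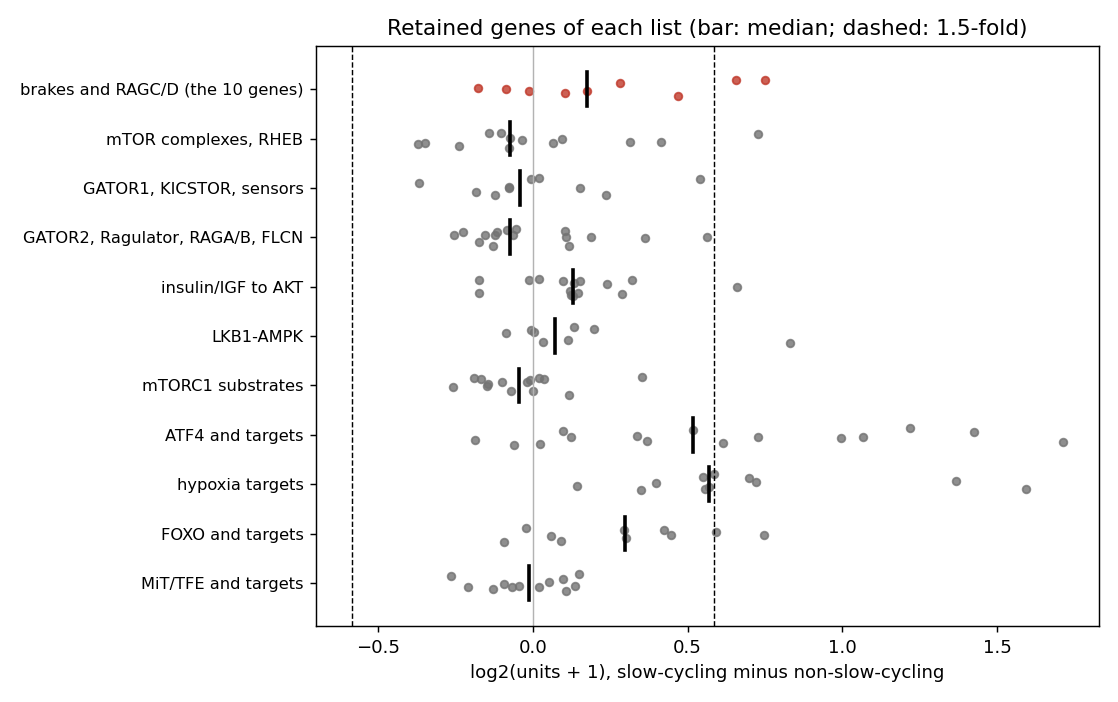
Log2 ratios, slow-cycling minus non-slow-cycling, of the retained genes of each list, 1 point per gene with random vertical spread, a black bar at each median and dashed lines at 1.5-fold. The set of 10 genes (red, 9 points) has a median of 0.17, the ATF4 and hypoxia targets 0.52 and 0.57, and the mTOR complex genes -0.07.

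Known inducers of the sestrins and of DDIT4 were set beside them, each list without the genes of the set. The lists were chosen with earlier results of these data known. ATF4 itself was at 522 units in slow-cycling cells and 514 units in non-slow-cycling cells. Of 16 genes in the list of ATF4 and its targets, 15 were retained, 7 were called higher and 0 lower, with a median log2 ratio of 0.52. Over all retained genes, 5.38% were called higher and 1.41% lower, and the median was 0.03. The leucine transporter SLC7A5 was at 181 units in slow-cycling cells and 66.6 units in non-slow-cycling cells, and SLC3A2, the chain it pairs with, at 158 and 103 units. The log2 ratios of these 2 were 1.42 and 0.61, and SLC3A2 was not called with the median ratio of all genes set to 0. TRIB3, a pseudokinase that binds AKT, was at 10.5 units in slow-cycling cells and 4.79 units in non-slow-cycling cells. ATF5 had a log2 ratio of 0.73, VLDLR 1.07, DDIT3 1.22 and ATF3 1.71. The amino acid synthesis genes of the list were not called: ASNS, PSAT1 and PHGDH had log2 ratios of 0.10, -0.06 and -0.19. ATF3 is also an immediate early gene, and several of these genes answer to other stress factors as well.

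HIF1A, the hypoxia factor, was at 91.7 units in slow-cycling cells and 87.8 units in non-slow-cycling cells. Of 12 hypoxia targets, 11 were retained, all 11 had a ratio above 0 and 5 were called higher, with a median log2 ratio of 0.57. Beside them, 56.2% of all retained genes had a ratio above 0 and 5.38% were called higher, with a median of 0.03. Of the 5 hypoxia targets called higher, NDRG1, ADM and P4HA1 had log2 ratios of 0.72, 0.70 and 0.59. CA9 was at 3.28 units in slow-cycling cells and 0.660 units in non-slow-cycling cells. BHLHE40 was at 2.02 units in slow-cycling cells while non-slow-cycling cells had it listed at 0. CA9 and BHLHE40 reached the 1-unit minimum in slow-cycling cells alone. P4HA1 was not called with the median ratio of all genes set to 0 or with upper quartiles made equal. BNIP3, a mitophagy receptor that can also bind RHEB, was at 266 units in slow-cycling cells and 181 in non-slow-cycling cells, a log2 ratio of 0.55.

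FOXO3 was at 15.9 units in slow-cycling cells and 12.7 units in non-slow-cycling cells. Of 10 FOXO factors and targets, all retained, 8 had a ratio above 0, with a median of 0.30. The share above 0 was 56.2% over all retained genes, and their median was 0.03. KLF6 and TXNIP were called higher at 0.75 and 0.59, beside 5.38% of all retained genes. TXNIP was not called with the median ratio set to 0. SESN3 had a ratio of 0.47 beside the FOXO genes. These lists share libraries and genes that answer to several factors, and which factor acted on the sestrins or DDIT4 was not tested.

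**Figure D4:**
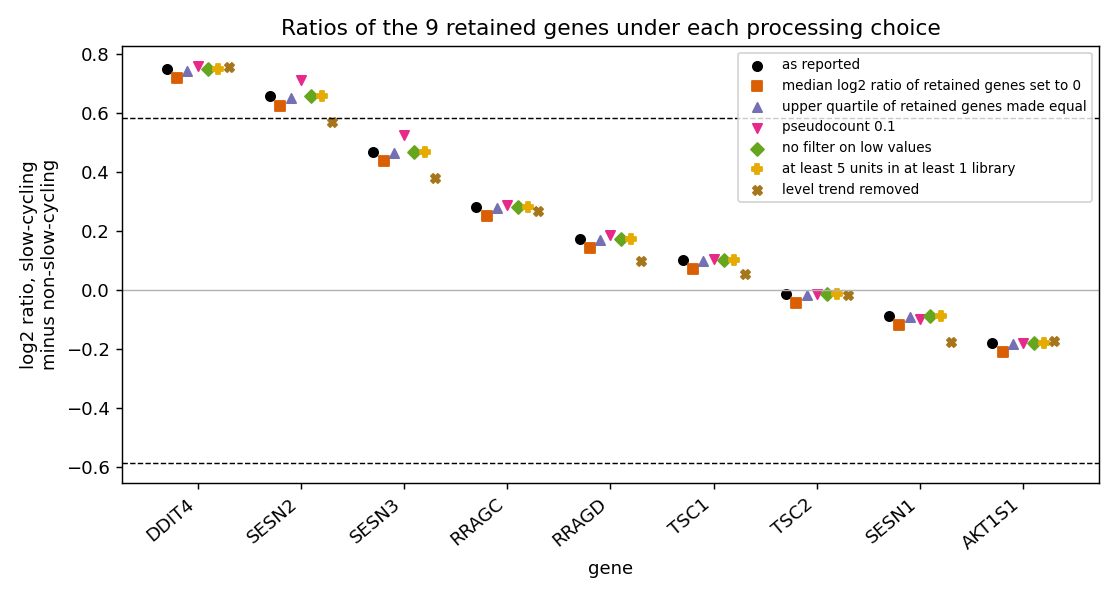
Log2 ratios, slow-cycling minus non-slow-cycling, of the 9 retained genes of the set under each processing choice, with dashed lines at 1.5-fold. DDIT4 stays between 0.72 and 0.76, above the line, whereas SESN2 lies between 0.57 and 0.71 and falls under the line in 1 case; no gene changes sign.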

How the data were processed

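Polyadenylated RNA was profiled in 2 SK-ES-1 libraries with a stranded mRNA kit, per the labels' protocols. Per the submitters' processing notes, hg38 was the build. No aligner, counter or annotation is named in the labels or headers. The authors deposited 1 column of normalized log2 values per library, normalized per the file headers. The log2 scale with 1 added was inferred from the values: none was below 0, and 2 raised to the value, minus 1, summed to 983638 units for slow-cycling cells and 984120 for non-slow-cycling cells. Each table was tied to its group by the sample it was deposited for. These values keep no counts, so depth is unknown and no counting interval was computed.

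Units of 174 lines that shared a gene ID were summed. Genes with at least 1 unit in a library were retained, the pseudocount was 1, and no further scaling was applied. With 1 library per group there was no test, and calls at 1.5-fold are descriptions. The computation was run on simulated data with changes larger than 1.5-fold, none of them placed in low genes. It therefore does not check calls near 1.5-fold or changes in low genes. Coordinates and promoters came from RefSeq (GRCh38.p14) by gene ID, which matched 51252 of 53737 genes and gave a promoter for 7 of the 10. Alternatives covered scaling, pseudocount, filter, fold threshold and the level trend, removed as the median ratio of 20 level bins. All 10 genes are named. Of each other list, the rule names genes past 1.5-fold or, with fewer than 2, the 2 of largest absolute ratio, plus MTOR, RPTOR, MLST8, RHEB, RRAGA, ATF4, FOXO3 and HIF1A; other genes named were chosen after their values were seen. Some items that the rule names are not reported here. The genes and lists were chosen with earlier results of these data known. Python 3.11.15, pandas 2.3.3 and numpy 2.4.6 were used.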

Additional observations from a re-analysis of the deposited data

How the results depend on the processing

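The 7 ways of processing left the sign of the ratio unchanged in all 9 retained genes of the set. The count of genes called higher was 2 as reported. It was 1 with the level trend removed, where SESN2 fell to 0.57. In that setting 3.24% of all retained genes were called higher and 2.65% lower. The count was 0 at a 2-fold threshold, against 1.90% of all retained genes, and 4 at a 1.2-fold threshold, against 17.4%. The 2 further genes at 1.2-fold were SESN3 and RRAGC. None was called lower in any of these settings. The median log2 ratio ran from 0.10 with the level trend removed to 0.23 with no filter on low values, which lets DEPTOR in. Median centring moved all ratios by 0.03.

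Among the other lists, 5 of 11 retained hypoxia targets were called higher as reported, and 3 of 8 with at least 5 units in a library. That filter left 2.29% of all genes called higher. Hypoxia targets called higher numbered 7 with a pseudocount of 0.1, 6 with the level trend removed, 2 at 2-fold and 10 at 1.2-fold. Over all retained genes, 7.57% were called higher with that pseudocount and 3.24% with the level trend removed. ATF4 targets called higher numbered 7 of 15 as reported, 4 at 2-fold and 10 at 1.2-fold. The shares of all retained genes were 1.90% at 2-fold and 17.4% at 1.2-fold. FOXO genes called higher numbered 2 as reported, 1 with the median set to 0, 0 at 2-fold and 6 at 1.2-fold. With the median set to 0, 4.77% of all retained genes were called higher. The call of RHEBL1 was lost with the level trend removed and with at least 5 units in a library, and FNIP1 and CASTOR2 passed 1.5-fold with a pseudocount of 0.1. No paired analysis was possible because each group has 1 library, and no library could be left out for the same reason. The unknown depth limits low values such as those of DEPTOR most.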
